A study of Mus musculus with 6 samples.

Results

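The genes of the proteasome and of the muscle ubiquitin ligases were compared between mouse hearts with floxed thioredoxin-1 alleles and hearts that also carried a heart-muscle Cre. The genes were chosen by symbol: every listed gene whose name is Psma, Psmb, Psmc, Psmd or Psme followed by a digit, and Fbxo32, Trim63, Trim55, Trim54 and Mdm4. This gave 48 of the 14133 genes in the table, and all 48 were tested. The testis and thymus core subunits Psma8 and Psmb11 were not analysed here. The mice were C57BL/6, 1 month old, and RNA was taken from the heart. The 3 control libraries (replicates 3, 4 and 5) carried Trx1 flox/flox alleles with no Cre, and the 3 others (replicates 6, 7 and 8) carried the same alleles and MHC-Cre, a Cre transgene driven by the Myh6 promoter, which is active in cardiomyocytes. Other cells of the heart do not use that promoter. No group carried the Cre without the floxed alleles, so effects of the Cre and of the deletion cannot be told apart here.

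Proteins that a cell is to destroy are tagged with ubiquitin and fed to the proteasome. Its barrel, the 20S core, is built of alpha and beta subunits, and 3 of the beta subunits cut the protein chain. The 19S regulatory particle caps the barrel: its ATPases (Psmc genes) unfold the tagged protein, and its other subunits (most Psmd genes) bind and remove the ubiquitin. Under interferon, the immunoproteasome subunits Psmb8, Psmb9 and Psmb10 take the place of the cutting subunits Psmb5, Psmb6 and Psmb7, and Psme1 and Psme2 form the 11S activator. In muscle, ubiquitin ligases choose the proteins to be tagged. Fbxo32 (atrogin-1) and Trim63 (MuRF1) are the classic ligases of muscle atrophy, and FOXO transcription factors are known to switch both on.

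Of the 48 genes, 1 rose and 1 fell in the libraries labelled knockout: Trim54, a sarcomere-associated ubiquitin ligase (MuRF3), and Psme1, the alpha subunit of the 11S activator. That is 2 of 48, against 9.66% of all 12516 tested genes (limma on log2 CPM, reads scaled to an effective library size, adjusted p under 0.05 after Benjamini-Hochberg over all tested genes). Of all tested genes 4.79% rose and 4.87% fell. The other 46 were not past the test. The median difference of the 48 genes was 0.09 on the log2 scale, and that of all tested genes was -0.01. Before adjustment, 13 of the 48 genes had p under 0.05, beside 24.8% of all tested genes. Every library labelled knockout lay above every control for 13 of the 48 (14.4% of all tested genes) and below every control for 4 (16.2%). Groups that did not overlap, in either direction, made up 30.7% of all tested genes.

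RNA of Txn1, the targeted gene, was no lower with the Cre than without it. Its log2 CPM was 6.64, 6.996 and 7.04 in controls 3, 4 and 5 and 6.95, 6.90 and 7.13 in libraries 6, 7 and 8 (difference 0.10, 95% confidence interval -0.22 to 0.42, adjusted p = 0.72 with limma, exact two-sided permutation p = 0.7, where 3 against 3 allows no p below 0.1). The labels do not name the floxed exons, and other heart cells keep the gene, so this value is no check of the labels, and the second group is called labelled knockout throughout. Myh6, whose promoter drives the Cre, was 16.06 ± 0.08 log2 CPM in controls and 15.38 ± 0.33 in the others (SD, n = 3 each, adjusted p = 0.18, limma). The libraries held 8347636 to 13705281 reads in listed genes. The 8 cardiomyocyte markers summed to 119805 to 133919 CPM in controls and 77170 to 104523 CPM in the others. Myh6 made up the largest part of that sum. Of the 8 markers 3 fell, Tnni3, Ryr2 and Pln. The count was 0 with no intensity trend or without control 5, and 1 without control 3, control 4 or replicate 6. It was 2 without replicate 7 and 5 without replicate 8. Tnnt2 and Actn2, named here for their direction, had positive differences (0.05 and 0.15) and were not past the test. The 8 fibroblast markers summed to 1468 to 1899 CPM in controls and 2586 to 6143 CPM in the others, and 5 of them rose, among them Dcn and Mfap5 (1 called with no intensity trend, 3 without control 4 and 6 without replicate 8). In such bulk samples, fewer cells of a type and less RNA per cell cannot be told apart. Nothing in the labels says that the replicates were separate animals, so the p-values measure the spread between these samples.

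**Figure D1:**
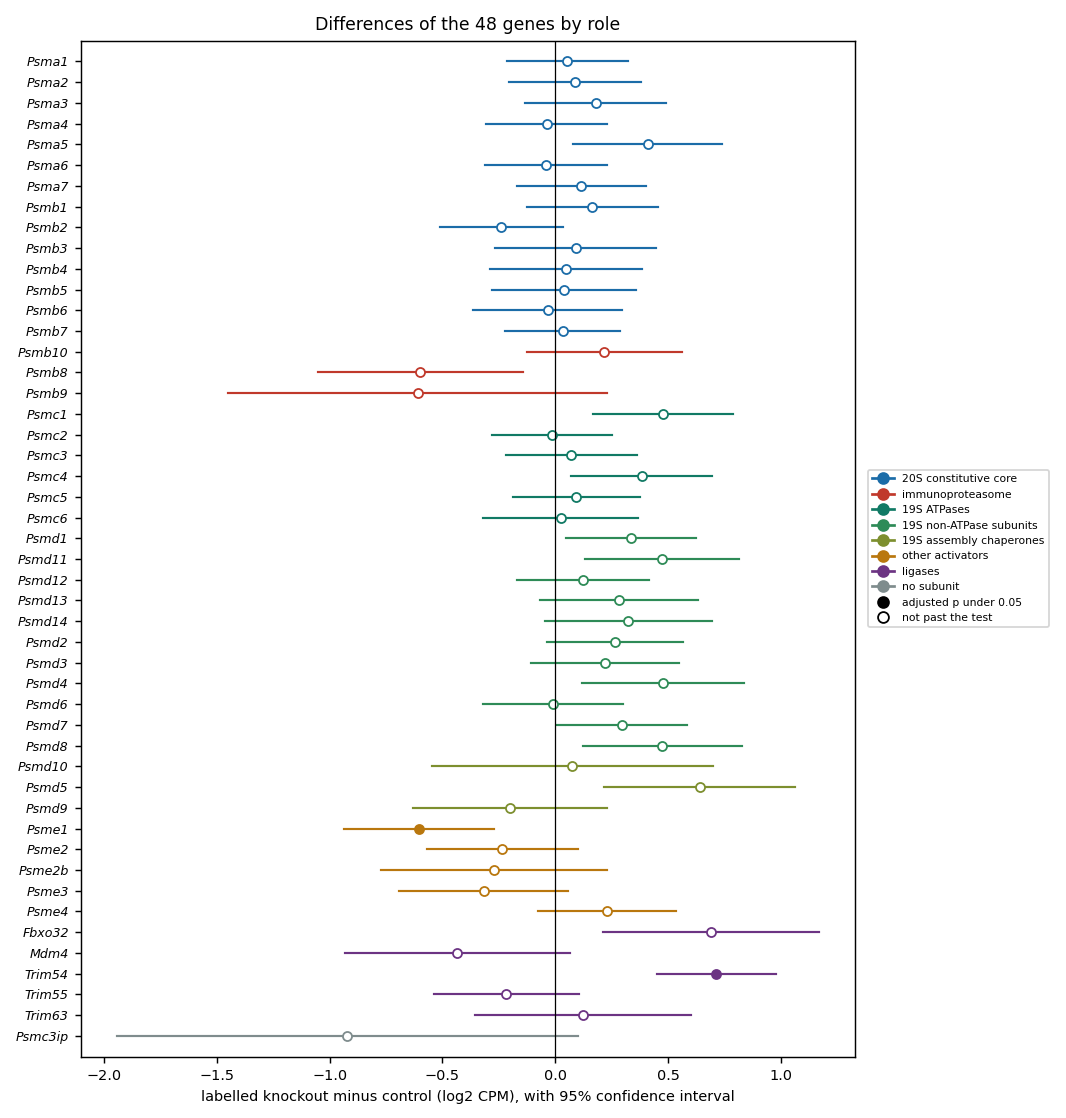
Difference between labelled knockout and control (log2 CPM, horizontal axis) for each of the 48 genes, with the 95% confidence interval of the limma fit as a line, coloured by role. Filled points mark the genes past the test, Trim54 on the right and Psme1 on the left. The constitutive 20S genes lie around 0 and most 19S genes to the right of it.

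The RefSeq promoters of the genes that moved, and of 3 genes they are read beside, are shown here: Trim54 with its relative Trim63, and Psme1 with the immunoproteasome genes Psmb8 and Psmb9. Each is 250 bases before to 50 bases after a RefSeq start on GRCm38.p6, read 5′ to 3′ on the gene's strand. Capitals mark matches to CCAAT, TGACNNNGC (an antioxidant response element core), GAAA and GAAA 2 bases apart (an interferon-stimulated response element), TTCNNNGAA (a gamma-activated sequence), GTAAACA (a FOXO site) and CTA and TAG 4 bases apart (a MEF2 site) on either strand.
Trim54 (chr5:31116362-31116661, plus strand; 300 bases).
Trim54: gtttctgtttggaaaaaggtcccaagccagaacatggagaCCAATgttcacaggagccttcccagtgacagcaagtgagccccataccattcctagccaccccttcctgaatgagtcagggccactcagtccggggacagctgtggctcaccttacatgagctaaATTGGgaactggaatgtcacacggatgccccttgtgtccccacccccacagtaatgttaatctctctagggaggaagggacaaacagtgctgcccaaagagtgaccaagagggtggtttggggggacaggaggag
Trim63 (chr4:134314870-134315169, plus strand).
Trim63: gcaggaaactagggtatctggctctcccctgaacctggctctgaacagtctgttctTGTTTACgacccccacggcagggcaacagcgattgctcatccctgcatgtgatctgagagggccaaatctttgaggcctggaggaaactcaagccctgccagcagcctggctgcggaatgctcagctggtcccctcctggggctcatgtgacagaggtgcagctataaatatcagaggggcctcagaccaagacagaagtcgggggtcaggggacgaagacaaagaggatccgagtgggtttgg
Psme1 (chr14:55578244-55578543, plus strand).
Psme1: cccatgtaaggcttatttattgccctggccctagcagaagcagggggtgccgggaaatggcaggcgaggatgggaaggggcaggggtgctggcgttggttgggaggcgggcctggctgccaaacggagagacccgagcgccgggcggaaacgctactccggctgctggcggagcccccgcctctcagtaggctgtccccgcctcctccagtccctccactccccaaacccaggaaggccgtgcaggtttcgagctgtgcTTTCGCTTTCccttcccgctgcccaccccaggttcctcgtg
Psmb8 (chr17:34197945-34198244, plus strand).
Psmb8: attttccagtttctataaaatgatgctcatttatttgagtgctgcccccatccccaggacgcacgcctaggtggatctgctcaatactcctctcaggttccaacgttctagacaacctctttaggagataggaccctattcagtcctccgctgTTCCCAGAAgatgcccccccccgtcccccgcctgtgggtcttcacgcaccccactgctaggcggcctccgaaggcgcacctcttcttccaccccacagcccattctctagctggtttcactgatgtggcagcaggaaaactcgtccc
Psmb9 (chr17:34187281-34187580, minus strand).
Psmb9: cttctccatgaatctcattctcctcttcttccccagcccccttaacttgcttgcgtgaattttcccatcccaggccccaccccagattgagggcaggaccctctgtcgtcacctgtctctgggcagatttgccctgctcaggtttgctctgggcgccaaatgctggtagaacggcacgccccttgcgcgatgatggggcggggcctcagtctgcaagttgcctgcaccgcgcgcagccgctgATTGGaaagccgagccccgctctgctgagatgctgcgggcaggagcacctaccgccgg

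The Psme1 window held the paired GAAA once, as TTTCGCTTTC on the other strand, a match found in 3.44% of all 32851 windows of that length. Counted by gene, 4 of the 40 members with a window held it, beside 3.92% of the 11036 genes of the table with one. The Psmb8 window held TTCNNNGAA (8.3% of all windows), as did that of 1 other member, Psmd2. Trim63 held GTAAACA (3.65% of all windows and 3.19% of the table's genes), read as TGTTTAC, and was the only one of the 40 members to do so. Fbxo32 and Trim55 had no window, so their promoters were not searched. Trim54 held CCAAT at 2 places, and 15 of the 40 members held it at least once, beside 42.4% of the table's genes and 37.4% of all windows. TGACNNNGC, the core bound by the factor NFE2L1 that is known to raise proteasome genes together, was found in 6 of the 40 members (Psmb5, Psmb6, Psmc6, Psmd12, Psmd9 and Psme4), or 15.0% of them, beside 16.8% of the table's genes and 12.4% of all windows. The MEF2 letters were in 2 of the 40 (Psma2 and Psmb5) and in 3.73% of the table's genes and 3.69% of all windows. None of these 6 genes passed the test. No window of the 5 sequences holds matches to 2 different motifs, and no matches overlap.

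The ubiquitin ligases differed among themselves. Trim54 (chromosome 5, 31116712 to 31137630, mm10) was 7.82, 7.75 and 7.62 log2 CPM in controls 3, 4 and 5 and 8.43, 8.48 and 8.42 in libraries 6, 7 and 8. All 3 libraries labelled knockout lay above all controls and close together. It rose 1.64-fold (log2 difference 0.71 ± 0.12, SE, adjusted p = 0.0038), from 7.73 ± 0.10 to 8.44 ± 0.03 (SD, n = 3 each, limma). Without any 1 library the adjusted p stayed at 0.043 or below, and with no intensity trend in the variance it was 0.065. Exons of Trim54 share 382 of 1436 bases with Gm15469 on the other strand, and the labels do not say whether reads were counted by strand.

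Fbxo32, the F-box subunit of an SCF ligase, was 5.47, 5.49 and 4.83 log2 CPM in controls and 5.74, 6.35 and 5.77 in libraries 6, 7 and 8. The groups did not overlap, but control 5 was low and replicate 7 high, and the difference of 0.69 ± 0.22 (SE) was not past the test (adjusted p = 0.070). Leaving out replicate 8 brought it past the test (0.039). Trim63, the RING ligase of the thick filament, was 7.99, 7.95 and 7.78 log2 CPM in controls and 7.49, 8.61 and 7.98 in the others. Replicate 6 was below and replicate 7 above all controls, so the group spread over a wide range (SD 0.56 against 0.11), with a difference of 0.12 and an interval of -0.35 to 0.60 (adjusted p = 0.78). Its sign turned without replicate 7 (-0.17). Fbxo32 and Trim63, the usual pair of atrophy markers, were therefore both highest in replicate 7 and unlike each other in replicate 6.

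Trim55 (MuRF2), another ligase of the sarcomere, was 6.71, 6.77 and 6.88 log2 CPM in controls and 6.39, 6.82 and 6.50 in libraries 6, 7 and 8 (difference -0.22 ± 0.15, SE, adjusted p = 0.40). The groups overlapped through replicate 7. Within a library, the log2 ratio of Trim55 to Trim54 was -1.11, -0.98 and -0.74 in controls and -2.04, -1.66 and -1.92 in the others. Mdm4, grouped here with the ligases, holds p53 in check together with the ligase Mdm2. Mdm4 was 4.17, 4.75 and 4.54 log2 CPM in controls and 3.96, 3.84 and 4.35 in the others. Its groups overlapped, replicate 8 being above control 3 (difference -0.43 ± 0.23, SE, adjusted p = 0.27).

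**Figure D2:**
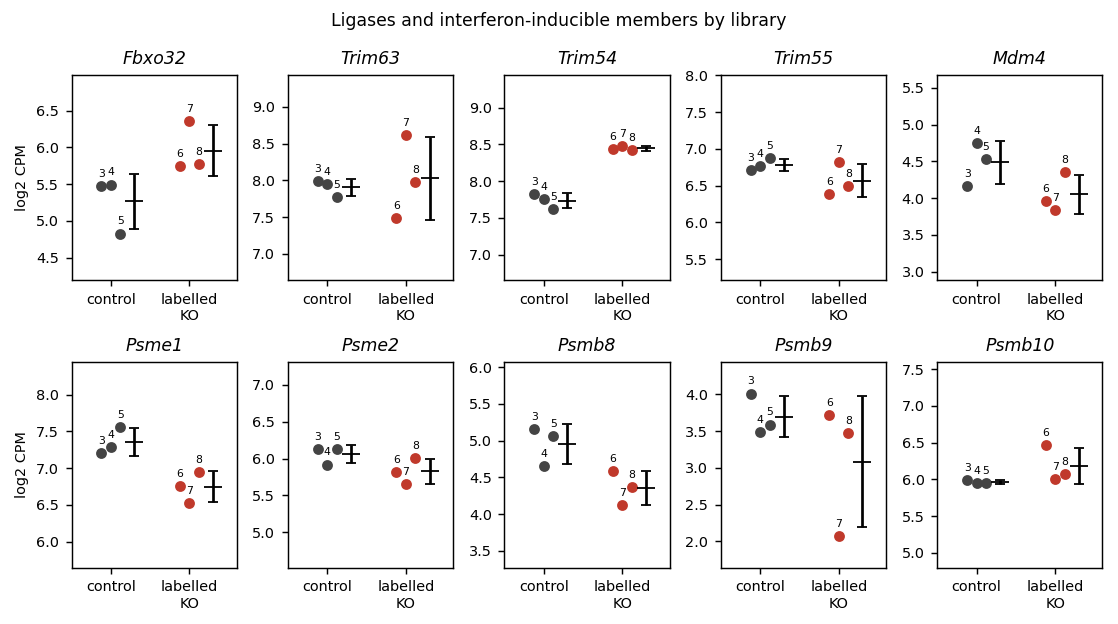
Log2 CPM of the 5 ligase genes and of 5 interferon-inducible proteasome genes in each library (points, numbered by replicate), with group means and SD as bars at the right of each group; every panel spans the same range. The groups do not overlap for Trim54, Fbxo32, Psme1, Psmb8 and Psmb10, and replicate 7 stands apart for Fbxo32, Trim63 and Psmb9.

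In the constitutive 20S core, 0 of 14 genes passed limma's test (1 at an unadjusted p under 0.05, and 0 in each alternative fit). The median difference was 0.05, the 14 differences ran from -0.24 to 0.41, and their 95% intervals together from -0.51 to 0.74 on the log2 scale. Psmb7, the trypsin-like subunit, was among the steadiest, at 7.92, 7.95 and 7.96 log2 CPM in controls and 7.99, 7.99 and 7.95 in libraries 6, 7 and 8. Psmb5, the chymotrypsin-like subunit and the target of proteasome inhibitor drugs, was 7.28, 7.10 and 7.33 in controls and 7.51, 7.25 and 7.06 in the others, with replicate 8 below and replicate 6 above every control. For Psmb6, the caspase-like subunit, the values were 7.51, 7.39 and 7.62 against 7.67, 7.58 and 7.16 log2 CPM.

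The constitutive core genes with the largest differences went opposite ways. Psma5, an alpha ring subunit, was 6.01, 5.95 and 6.06 log2 CPM in controls and 6.28, 6.68 and 6.30 in the others (difference 0.41 ± 0.15, SE, adjusted p = 0.12). Psmb2, a beta ring subunit without cutting activity, was 6.92, 6.89 and 6.88 log2 CPM in controls and 6.59, 6.68 and 6.70 in the others (-0.24 ± 0.13, adjusted p = 0.26). Neither gene's groups overlapped. Psmb1 also lay above every control in each library labelled knockout, by a difference of 0.16, and the groups of the other 11 core genes overlapped.

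In the 19S regulatory particle, 15 of 17 genes had a positive difference, beside 6112 of all 12516 tested genes, with a median of 0.28. Yet 0 of the 17 passed limma's test, and 7 had an unadjusted p under 0.05 (24.8% of all tested genes). For 7 of the 17 every library labelled knockout was above every control (14.4% of all tested genes). The 6 ATPases had a median of 0.08 and the 11 other subunits one of 0.30. Psmc1, an ATPase that helps open the gate of the barrel, was 7.48, 7.63 and 7.63 log2 CPM in controls and 7.97, 8.32 and 7.87 in libraries 6, 7 and 8 (difference 0.48 ± 0.14, SE, adjusted p = 0.055). It passed the test after quantile normalization (0.034), with library weights (0.026) and without replicate 8 (0.011). Psmc4 was 7.04, 6.89 and 7.09 in controls and 7.49, 7.53 and 7.14 in the others (0.38 ± 0.14, adjusted p = 0.12), while Psmc2 differed by -0.02 with an interval of -0.28 to 0.25.

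Among the non-ATPase subunits, Psmd4, a ubiquitin receptor, was 7.02, 7.05 and 7.13 log2 CPM in controls and 7.75, 7.74 and 7.15 in libraries 6, 7 and 8 (difference 0.48 ± 0.16, SE, adjusted p = 0.090). Psmd8, of the lid, was 7.03, 7.18 and 7.12 in controls and 7.84, 7.71 and 7.21 in the others (0.47 ± 0.16, adjusted p = 0.088). In both, replicates 6 and 7 stood well above the controls and replicate 8 just above them. Psmd11, a lid subunit known to promote 26S assembly, was 6.28, 6.19 and 6.35 in controls and 6.56, 7.06 and 6.63 in the others (0.47 ± 0.16, adjusted p = 0.080). Psmd1 and Psmd2, the large scaffold subunits of the base, differed by 0.34 and 0.26, and Psmd14, the enzyme that removes ubiquitin, by 0.32 (adjusted p = 0.14, 0.26 and 0.27). Exons of Psmd1 share 301 of 7265 bases with Gm21972 on the same strand. Those of Psmd13 share 342 of 3377 bases with Sirt3 on the other strand, and Sirt3 differed by -0.54 (adjusted p = 0.090, limma). Psmd6 differed by -0.01 with an interval of -0.32 to 0.30.

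The 19S genes stood higher in replicates 6 and 7 than in replicate 8. The median deviation of the 17 genes from the control mean was 0.29 and 0.42 log2 units in replicates 6 and 7 and 0.07 in replicate 8, and for the 14 constitutive core genes it was 0.07, 0.09 and -0.05. The summed level of the 17 genes was 2783 to 3039 CPM in controls and 3523, 3798 and 3007 CPM in replicates 6, 7 and 8, so replicate 8 lay within the control range. Without replicate 8, 8 of the 17 were called, and 12 of the 48 genes in all, 11 higher and 1 lower, beside 17.5% of all tested genes (8.07% higher and 9.39% lower). Those higher were Psmc1, Psmc4, Psmd2, Psmd3, Psmd4, Psmd8, Psmd11, Psmd13, Psmd5, Fbxo32 and Trim54. Cell type markers also differed between these libraries. The median deviation of the 8 cardiomyocyte markers was -0.85, -0.58 and -0.31 in replicates 6, 7 and 8, and that of the 8 fibroblast markers was 1.82, 1.67 and 0.66. For the 8 endothelial markers it was -0.36, -0.24 and -0.16, for the 18 leukocyte markers 0.33, -0.06 and 0.29, and for the 8 smooth muscle and pericyte markers -0.11, -0.17 and 0.17. Replicate 8 was thus the nearest to the controls for the first 3 of these lists and not for the last 2, and the part of other cell types in the 19S result was not tested.

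**Figure D3:**
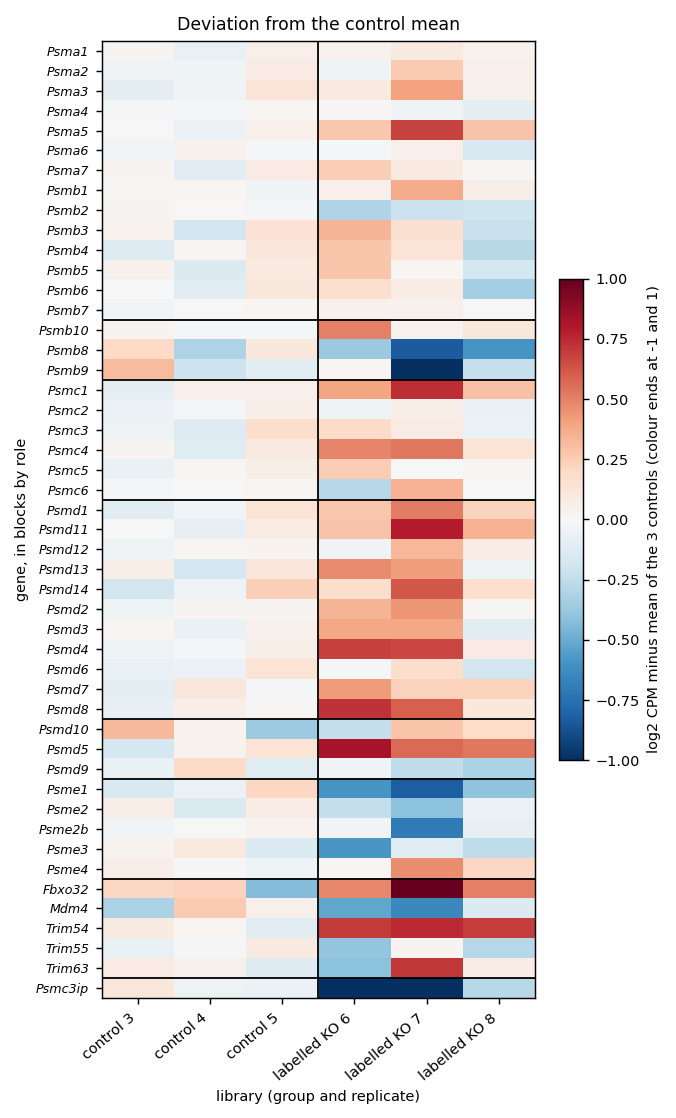
Deviation of each gene from the mean of the 3 controls (log2 CPM, colour) in each library, in blocks by role. The 19S blocks are redder in replicates 6 and 7 than in replicate 8, Trim54 is red in all 3 libraries labelled knockout, and Psme1 and Psmb8 are blue in all 3.

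The 3 chaperones that help build the 19S particle and leave it again differed in direction. Psmd5 was 3.97, 4.18 and 4.28 log2 CPM in controls and 4.96, 4.71 and 4.67 in libraries 6, 7 and 8, with no overlap (difference 0.64 ± 0.20, SE, adjusted p = 0.059). Psmd9 differed by -0.20 and Psmd10 (gankyrin) by 0.08, both with overlapping groups. Psmc3ip, a meiotic recombination factor that shares only its name with the proteasome, was low, with 14 to 54 reads a library, at 2.04, 1.87 and 1.86 log2 CPM in controls and 0.62, 0.74 and 1.65 in the others (-0.92 ± 0.47, adjusted p = 0.25). Its exons share 385 of 1818 bases with Mlx on the other strand, and Mlx differed by -0.24.

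Psme1 was the proteasome gene that fell. It was 7.20, 7.29 and 7.56 log2 CPM in controls 3, 4 and 5 and 6.76, 6.53 and 6.95 in libraries 6, 7 and 8, so every library labelled knockout lay below every control. It fell by 0.60 ± 0.15 on the log2 scale (SE, adjusted p = 0.026, limma), a level 1.52-fold lower, from 7.35 ± 0.19 to 6.75 ± 0.21 (SD, n = 3 each). The call ended without control 3, 4 or 5 (adjusted p = 0.063, 0.097 and 0.16), without replicate 7 (0.075) and with no intensity trend (0.13), while the difference stayed between -0.71 and -0.50 with any 1 library left out. Psme1 lies on chromosome 14, 55578123 to 55581529 (mm10), and shares 14 exon bases with Emc9 on the other strand.

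Psme2, the partner of Psme1 in the activator ring, lies close by on the same chromosome (55587441 to 55591113). Its log2 CPM was 6.12, 5.92 and 6.14 in controls and 5.82, 5.65 and 6.00 in libraries 6, 7 and 8 (difference -0.23 ± 0.15, SE, adjusted p = 0.38), with replicate 8 inside the control range. Psme2b is a single-exon relative of Psme2 on chromosome 11, and reads may be split between the pair. It was 4.27, 4.29 and 4.33 log2 CPM in controls and 4.27, 3.59 and 4.21 in the others. Psme3, which forms a nuclear activator, was 5.62, 5.68 and 5.44 log2 CPM in controls and 4.996, 5.46 and 5.33 in the others (-0.32 ± 0.17, adjusted p = 0.28). Psme4 (PA200), an activator of another build, was 9.46, 9.37 and 9.35 against 9.41, 9.85 and 9.60 (0.23 ± 0.14, adjusted p = 0.35).

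The immunoproteasome genes differed in direction, and 0 of the 3 passed limma's test (1 at an unadjusted p under 0.05, and 0 called in each alternative fit). Psmb8 was 5.15, 4.65 and 5.06 log2 CPM in controls and 4.59, 4.12 and 4.37 in libraries 6, 7 and 8. The groups did not overlap, and control 4 was only just above replicate 6 (difference -0.60 ± 0.21, SE, adjusted p = 0.093). Psmb9 was 4.01, 3.49 and 3.59 in controls and 3.72, 2.07 and 3.47 in the others, with replicate 7, at 42 reads, far below the rest (-0.61 ± 0.39, adjusted p = 0.36). Without replicate 7 the difference was -0.10. Psmb10 was 6.00, 5.95 and 5.95 log2 CPM in controls and 6.47, 6.00 and 6.08 in the others (0.22 ± 0.16, adjusted p = 0.43). Psmb8 and Psmb9 lie near each other on chromosome 17, and Psmb10 lies on chromosome 8. Exons of Psmb8 share 498 of 3381 bases with Gm20496 on the other strand. Those of Psmb9 share 212 of 3660 bases with Tap1 on the other strand, and Tap1 differed by -0.56 (adjusted p = 0.17, limma). Whether reads were counted by strand is not given.

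Since each immunoproteasome subunit replaces a named constitutive one, the pairs were also compared within libraries. The log2 ratio of Psmb8 to Psmb5 was -2.13, -2.45 and -2.26 in controls and -2.93, -3.13 and -2.69 in libraries 6, 7 and 8. Its mean was -2.28 ± 0.16 and -2.92 ± 0.22 (SD, n = 3), with no overlap (exact two-sided permutation p = 0.1, the smallest that 3 against 3 allows, and 0.3 after adjustment over the 3 pairs). The ratio of Psmb9 to Psmb6 was -3.81 ± 0.28 in controls and -4.38 ± 0.98 in the others (exact permutation p = 0.5, adjusted 0.5), and without replicate 7 the difference was -0.016. That of Psmb10 to Psmb7 was -1.98 ± 0.05 and -1.79 ± 0.24 (exact permutation p = 0.2, adjusted 0.3). These are log2 ratios of CPM without length, so they compare libraries and not subunits.

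Per kilobase of transcript, the control hearts held far less RNA of the immunoproteasome than of the core it would replace. The mean level was 19.3, 9.70 and 47.6 CPM per kb for Psmb8, Psmb9 and Psmb10, against 168, 228 and 212 CPM per kb for Psmb5, Psmb6 and Psmb7. The 14 constitutive core genes ran from 41.9 (Psma2) to 228 CPM per kb (Psmb6), and the 17 genes of the 19S particle from 27.2 (Psmd11) to 186 CPM per kb (Psmc3). The chaperones Psmd5, Psmd9 and Psmd10 were at 4.03, 8.86 and 6.77 CPM per kb. Among the ligases, Trim54 and Trim63 led with 148 and 127 CPM per kb, Trim55 had 42.5, and Fbxo32 and Mdm4 had 5.63 and 5.45. In the libraries labelled knockout the level of Trim54 was 241, 249 and 239 CPM per kb, above every other ligase in each library.

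**Figure D4:**
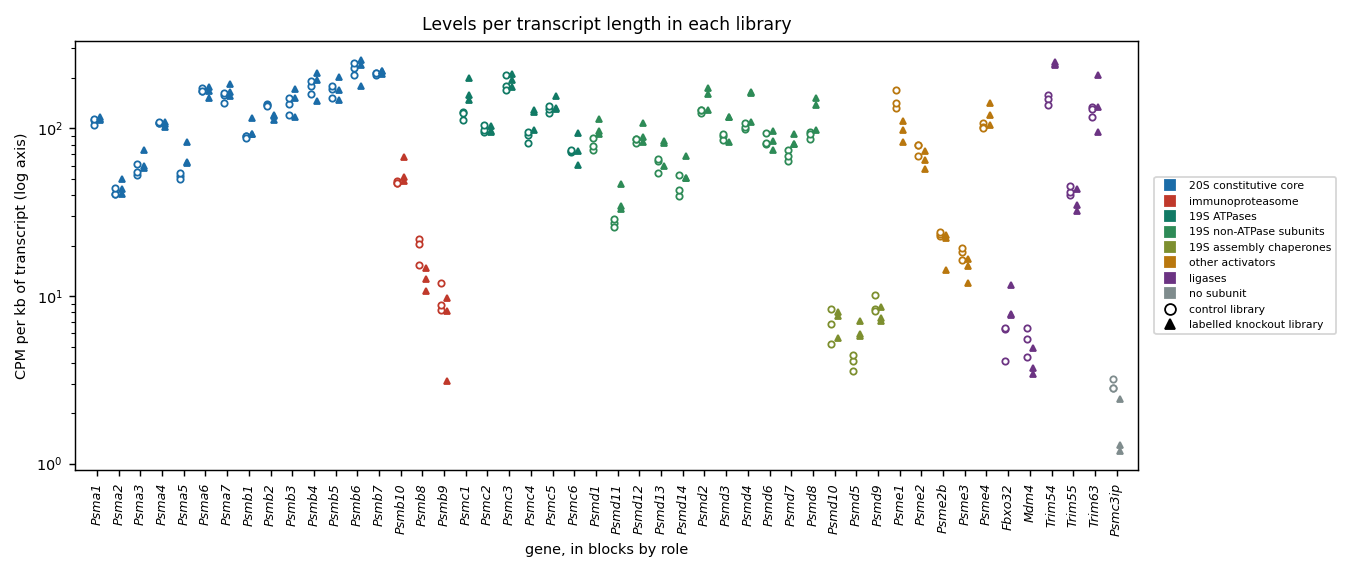
Level per transcript length (CPM per kb, log axis) of each gene in every control (open circles) and labelled knockout library (triangles), in blocks by role. Psmb8, Psmb9 and the chaperones lie below every constitutive core gene, Psmb10 lies near the lowest of them, and Trim54 and Trim63 are the most abundant ligases.

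The other genes of the pathway were read from lists. Of 27 tested genes for proteasome assembly and associated factors, 1 rose and 0 fell, with a median of 0.05. The gene was Ufd1, an adaptor of the segregase that pulls tagged proteins out of complexes (5.36 ± 0.22 to 5.98 ± 0.08 log2 CPM, SD, n = 3, adjusted p = 0.031, limma). Nfe2l1, the regulator of proteasome genes, chosen here after its values were seen, was 8.33 ± 0.09 and 8.41 ± 0.05 log2 CPM. Of 16 genes for ubiquitin and its activation 0 passed limma's test in either direction (1 at an unadjusted p under 0.05), with a median of 0.07. Of 27 genes on the list of other muscle and atrophy ligases 0 rose and 1 fell, Asb2 (9.74 ± 0.09 to 9.17 ± 0.33 log2 CPM, adjusted p = 0.049, limma), with a median of -0.08. Not every gene of that list is a ligase: it also holds ligase parts such as Cul1, and the ubiquitin-specific protease Usp19. No gene of that list was called without the filter, after quantile normalization, with no intensity trend or at the 0.01 threshold. The same held when any 1 library other than replicate 8 was left out.

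Of 16 tested genes of atrophy signalling 2 rose and 1 fell, with a median of -0.09. Ctsl, a lysosomal protease, rose (log2 difference 0.63, adjusted p = 0.0086, limma), as did Gabarapl1, a gene of autophagosome formation (0.80, 0.011). Foxo6 fell (-1.93, 0.0498), and that gene spread widely in the libraries labelled knockout (0.89 ± 1.24 log2 CPM, SD, n = 3). Its level was low there, at 1.52, -0.54 and 1.70 log2 CPM in libraries 6, 7 and 8. No gene of this list was called with no intensity trend or without control 3, control 4 or control 5. At the 0.01 threshold 1 was called, a rise. Foxo1 and Foxo3, also named after their values were seen, differed by 0.04 and -0.24 and were not past the test. Of the 8 p53-related partners of Mdm4, Cdkn1a, a p53 target that blocks the cell cycle, rose by 1.22 (adjusted p = 0.033). Usp2, a ubiquitin-specific protease, fell by 0.76 (0.019), and the other 6, Mdm2 and Trp53 among them, were not past the test. None of the 8 was called with no intensity trend, at the 0.01 threshold or without control 3, control 4 or control 5. Without replicate 6 or replicate 7, 1 of the 8 was called, a fall.

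Genes of interferon response and antigen presentation were read beside the immunoproteasome, since they share inducers. Of 22 tested, 3 fell and 0 rose, with a median of -0.39, while 4.87% of all tested genes fell. The difference was negative for 17 of the 22, beside 6404 of all 12516 tested genes. With no intensity trend 0 of the 22 were called, and at the 0.01 threshold 1 was. Among those that fell were Ifngr2, a chain of the interferon-gamma receptor (7.85 ± 0.15 to 7.22 ± 0.21 log2 CPM, SD, n = 3, adjusted p = 0.017, limma), and H2-K1, a class I antigen-presenting molecule (8.18 ± 0.17 to 7.62 ± 0.18 log2 CPM, 0.027). Beside this, 1 of 18 tested leukocyte markers rose, Itgam, and 0 fell, with a median of 0.15 and a summed level of 1327 to 1470 CPM in controls and 1429 to 1758 CPM in the others. Itgam was not called when any 1 library other than replicate 8 was left out. Of the 8 endothelial markers 1 rose (Vwf) and 1 fell (Kdr), with 0 to 3 called when 1 library was left out. The part of other cell types in the levels of Psme1 and Psmb8 was not tested.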

How the data were processed

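Heart RNA of 6 samples, 3 per group, was extracted with TRIzol per the labels' protocols. The deposited table holds log2 CPM per gene for RefSeq NM genes, per the file headers, and the submitters' processing notes name mm10, CASAVA, HISAT2 and edgeR without versions or order. All libraries share a lowest value of -3.29, so a pseudocount had been added before the log. The listed genes summed to 921199 CPM in replicate 6 and 1044060 CPM in control 5, so reads had been scaled to an effective library size. Reads were recovered from the steps between low values: 99.9% or more of 7465 genes with 1 RefSeq transcript held whole reads in each library, within 0.002 reads. Counting intervals were not used.

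Testing took in the 12516 genes whose mean log2 CPM was 0 or more, leaving out 1617, in limma 3.58.1 under R 4.3.3: group means, intensity trend, two-sided, Benjamini-Hochberg over all tested genes, threshold 0.05. Rose and fell are used of genes past the test. Named genes are all members, Txn1, and up to 6 genes a pathway list and 4 a marker list past the test, with exceptions said in the text. The values of 1 listed gene are not reported here. Members and lists were chosen with earlier results of these data known. Levels per kb use the mean length of RefSeq-matched GENCODE M21 transcripts, on GRCm38, the assembly of mm10. Shared exon bases were counted over all GENCODE M21 transcripts of a gene, which can cover more bases than its RefSeq transcripts. Of the 48 members, 3 shared exon bases with a gene on the same strand and 14 with a gene on the other strand. Alternatives left out each library in turn, dropped the filter or raised it to 3, centred on medians, applied quantile normalization or library weights, used log2(CPM + 1), used a robust trend or none, ran limma-voom on recovered reads, or set the threshold to 0.01.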

Additional observations from a re-analysis of the deposited data

How the results depend on the processing

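No paired analysis was possible because the groups share no replicate number. Of 1209 genes called among all tested, 121 were called with no intensity trend and 432 at a threshold of 0.01, and 403 to 2185 with 1 library left out. For the 19S particle, 0 genes became 1 after quantile normalization, 3 with library weights and 0 to 8 with 1 library left out. The count of activator genes, 1 as reported, was 0 with no trend, 0 at the 0.01 threshold and 0 to 1 with 1 library left out. For the ligases it was 0 with no trend and 1 to 2 with 1 library left out. The counts for the constitutive core and the immunoproteasome were 0 in every fit. Trim54 was called in 14 of 15 alternative fits and Psme1 in 10 of 15. With 1 library left out, small differences crossed 0: Txn1 (-0.025 to 0.18), Psma6 (-0.088 to 0.016), Psmb3 (-0.034 to 0.25), Psmb4 (-0.069 to 0.21), Psmb5 (-0.080 to 0.15), Psmb6 (-0.13 to 0.12), Psmc2 (-0.057 to 0.018), Psmc6 (-0.14 to 0.18), Psmd6 (-0.10 to 0.081), Psmd10 (-0.11 to 0.24) and Trim63 (-0.17 to 0.39). Psmd6 was 0.0090 with library weights. The cause was not tested. With 1 library left out, calls numbered 0 to 2 among proteasome assembly factors, ubiquitin genes, other ligases and p53 partners, 0 to 5 in atrophy signalling and 1 to 5 among interferon genes. Psmb9, Psmd10 and Psmc3ip had the lowest read numbers of the members, with as few as 42, 71 and 14 reads in a library. The part of depth in their spread was not tested.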
